A study of Mus musculus with 6 samples.

Results

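Slc1a2 encodes GLT-1, also named EAAT2, and 45 of the 2197 AGO2 target peaks in developing mouse cortex lay in its gene span. The members were found by position: each is a plus-strand peak with its midpoint between 102658239 and 102790784 on mm10 chromosome 2. The gene was chosen by its number of peaks, which was higher than that of any other gene in an earlier count of the same list, so its count, strand and position describe the choice and were not tested. The libraries were made from cortices of mice at postnatal day 14 that carried VGLUT2-Cre and a conditional Spy3-AGO2 allele, with pyramidal neurons given as the cell type and Spy3-Ago2 as the genotype. The 6 libraries form 3 groups of 2, namely AGO2-bound target RNA, AGO2-bound miRNA and input from whole lysate, and all 3 groups share this tissue, age and genotype. The tag is limited to cells in which the VGLUT2 driver has been active, and the labels name no mice without it. The target side was used as 1 peak list with no value per library, so no peak has a replicate, a height or an error, and input values were not used here.

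GLT-1 is a sodium-coupled transporter that clears glutamate from around synapses and carries most of the glutamate uptake of the forebrain. It is most abundant in astrocytes and is also found in a minor share of axon terminals, and its mRNA is known for a long 3′ untranslated region and for splice forms that differ at the C terminus. AGO2 is the protein that holds a miRNA while the miRNA pairs through its seed, bases 2 to 8, with a target RNA, most often in a 3′ untranslated region.

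Of the miRNAs that general knowledge links to GLT-1, directly or indirectly, 4 had a mature sequence in RefSeq (GRCm38.p6). They are shown with the miRNAs of the same seed that were counted in both miRNA libraries, because any of these would read the same seed match. The seed is in capitals, and miR-124-3p, miR-30b-5p and miR-30d-5p are named only.
miR-181a-5p: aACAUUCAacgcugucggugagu
miR-181b-5p: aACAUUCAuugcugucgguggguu
miR-181c-5p: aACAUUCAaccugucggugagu
miR-181d-5p: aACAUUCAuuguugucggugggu
miR-30a-5p: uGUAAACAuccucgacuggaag
miR-30c-5p: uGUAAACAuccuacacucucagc
miR-30e-5p: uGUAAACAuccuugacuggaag
miR-384-5p: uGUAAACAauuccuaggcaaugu
miR-103-3p: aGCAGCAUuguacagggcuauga
miR-107-3p: aGCAGCAUuguacagggcuauca
miR-218-5p: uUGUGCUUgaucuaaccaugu
The sequence of the peaks was not used here, so no peak is assigned to a miRNA.

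The Slc1a2 peaks fell into a sparse upstream part of 5 peaks and a dense 3′ cluster of 40 peaks. The span is 132.5 kb long and holds 8 RefSeq transcripts. Its first 64.6% had no peak, and the start site given in the promoter table, at 102706438, lay 37.4 kb before the first one. The 5 upstream peaks lay at 102743857 to 102743920, 102748485 to 102748552, 102756023 to 102756064, 102761053 to 102761110 and 102777508 to 102777600. They were 64, 68, 42, 58 and 93 nt wide. The gaps that followed them ran from 3.87 to 16.4 kb, so each of the 5 stood alone. The first lay inside the span of the lncRNA gene Gm13872, which the promoter table places on the minus strand, opposite to the peak. The other 44 lay in no second gene span. Exons and introns were not told apart here, so it is not known which of the 5 lie in spliced RNA.

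The cluster ran from 102781471 to 102790761, a length of 9291 nt, and its last peak ended 23 nt before the annotated end of the gene. The last 10 kb of the span, 7.54% of its length, held 40 of the 45 peaks (88.9%, exact Clopper-Pearson 95% interval 75.9 to 96.3), and peaks covered 2604 of its bases (26.0%). In the 122.5 kb before it peaks covered 325 bases (0.265%). The interval treats the peaks as independent, which peaks on 1 transcript are not. Within the span 0 peaks lay on the minus strand.

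**Figure D1:**
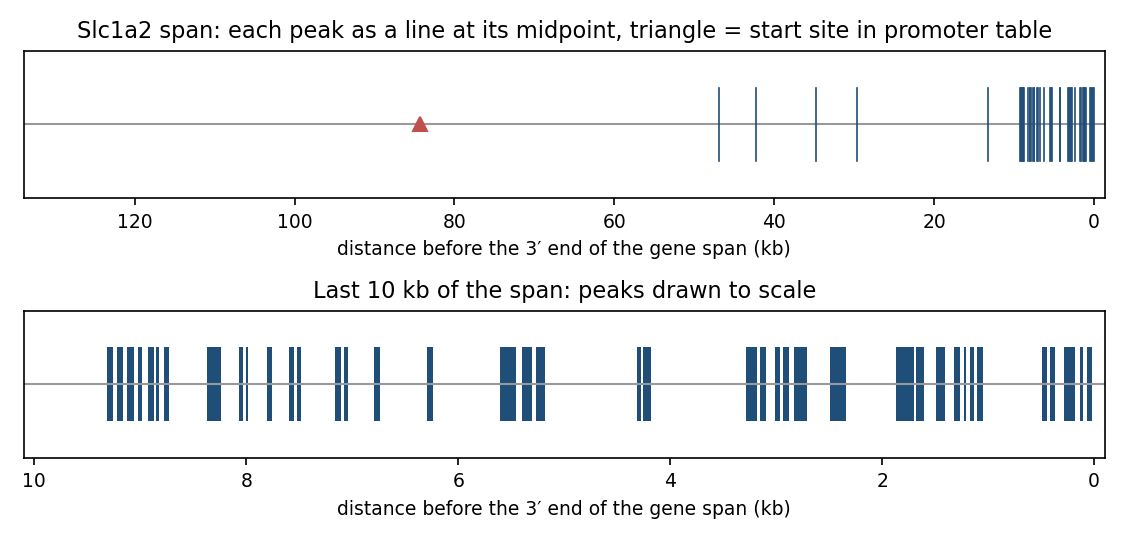
The 45 Slc1a2 peaks by distance before the 3′ end of the gene span (kb), over the whole span (top, a line at each midpoint, the triangle marking the start site in the promoter table) and over the last 10 kb (bottom, peaks to scale). The 5 upstream peaks stand apart from one another, and the 40 peaks of the cluster fall into 5 stretches separated by 4 gaps of 555 to 899 nt.

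The cluster was not filled evenly. Gaps of more than 500 nt occurred 4 times, measured 633, 866, 899 and 555 nt in 5′ to 3′ order, and made up 31.8% of its length. They divided it into 5 stretches, which held 17, 3, 2, 13 and 5 peaks. The first stretch, 102781471 to 102784546, held 17 peaks over 3076 nt and was covered to 28.9%. The next 2 were short and nearly filled: 3 peaks in 423 nt (102785180 to 102785602) covered 77.1%, and 2 peaks in 136 nt (102786469 to 102786604) covered 83.1%. The fourth stretch, 102787504 to 102789738, held 13 peaks over 2235 nt and was covered to 45.3%. The last, 102790294 to 102790761, held 5 peaks in 468 nt, covered 56.6%, and reached almost to the end of the gene.

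The first 7 peaks of the cluster formed a close row. They lay between 102781471 and 102782054, were 31 to 66 nt wide, were separated by gaps of 21 to 62 nt, and had midpoints 61 to 105.5 nt apart. Peaks covered 60.4% of these 584 nt. Over the whole cluster the midpoints of neighbouring peaks were 58.5 to 985.5 nt apart with a median of 138 nt, so the row was tighter than most of the cluster. It was not the only close run: the 4 peaks from 102789464 to 102789738 had midpoints 74, 70 and 76 nt apart, a more even spacing. The row of 7 was singled out after its values were seen.

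Counted in bins of 1 kb from the end of the gene, every bin held at least 2 peaks. The most peaks, 7, and the highest coverage, 48.5%, fell 1 to 2 kb before the end. A second high lay 7 to 9 kb before the end, with 6 peaks (25% covered) and 5 peaks (32.1% covered). The bins 3 to 5 kb before the end held 2 peaks each and were covered to 17.2% and 11.3%. The bin 6 to 7 kb before the end also held 2 peaks and had the lowest coverage, 11%.

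**Figure D2:**
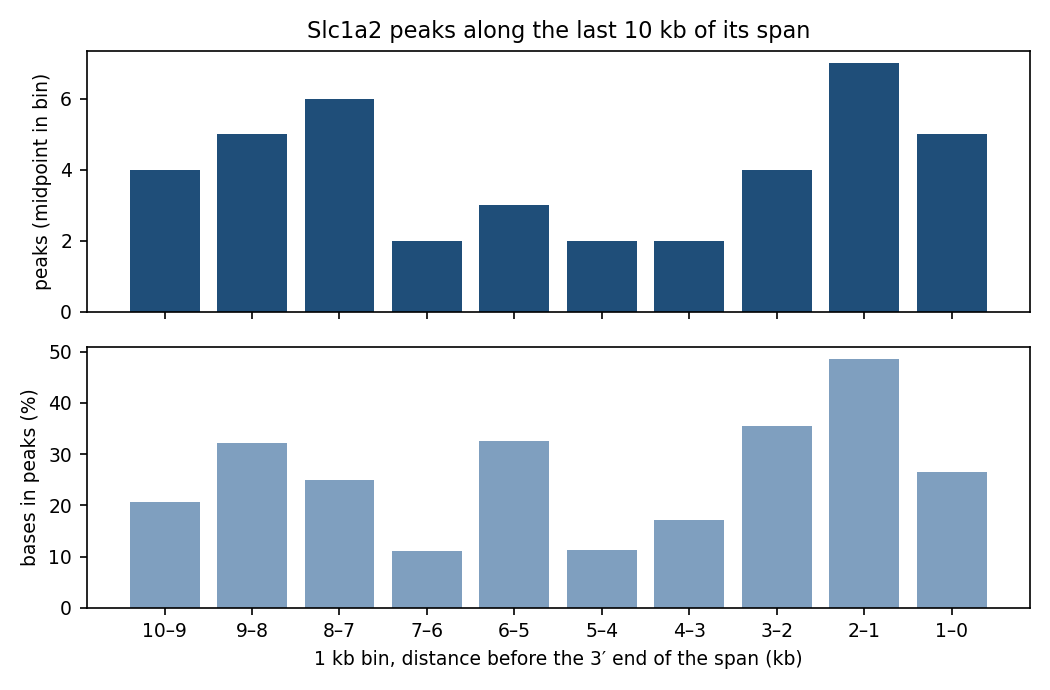
Number of Slc1a2 peaks by midpoint (top) and percent of bases inside a peak (bottom) in each 1 kb bin of the last 10 kb, from the 5′ side at the left to the gene end at the right. Both are lowest between 3 and 7 kb before the end, except for the bin 5 to 6 kb before the end, where 3 wide peaks covered 32.6%.

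Widths of the Slc1a2 peaks ranged from 18 to 162 nt around a median of 57 nt, with quartiles of 43 and 75 nt. The other 2152 peaks of the list had a median of 53 nt, quartiles of 32 and 80 nt and a range of 15 to 407 nt. The quartiles of Slc1a2 thus lay inside those of the other peaks. Peaks of at most 30 nt made up 3 of 45 (6.67%) in Slc1a2 and 23.9% of the others, and peaks of at least 100 nt made up 6 of 45 (13.3%) and 15.9%. These differences are descriptions, since peaks on 1 transcript are not replicates. The widest peak, 162 nt, lay at 102788919 to 102789080 in the fourth stretch, and the narrowest, 18 nt, at 102782785 to 102782802 in the first. Of the 6 peaks of at least 100 nt, 3 lay in the fourth stretch and 1 each in the first, the second and the last.

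Neighbouring peaks of the cluster were 21 to 899 nt apart, with a median gap of 53 nt over 39 gaps. Of these, 18 (46.2%) were under 50 nt. No pair of peaks anywhere in the list, on the same strand, was closer than 21 nt, so 21 nt is a floor of the list and not of this gene. Joining peaks under 50 nt apart turned the 40 peaks into 22 blocks, of which 9 were single peaks. The other 13 blocks held 31 peaks, at most 4 in a block. The blocks of 4 lay at 102781471 to 102781799 and at 102789464 to 102789738.

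The names of the peaks end in a number that rises along each strand of every chromosome and skips values, and no source used here says what the skipped values stand for. The highest number in the list was 14469, and 15.2% of the numbers up to it were listed. From the first to the last Slc1a2 peak the numbers ran from 1149 to 1246, so 45 of 98 (45.9%) were listed and 53 skipped. Outside that range, the plus strand of chromosome 2 had 107 of 694 numbers listed (15.4%). Within the cluster 40 of 82 numbers were listed (48.8%). The upstream part had 11 skipped numbers before the cluster began.

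The 4 gaps over 500 nt, 2953 nt in all, held 23 of the 42 numbers skipped in the cluster. Because the numbers rise along the strand, a longer gap has more room for skipped numbers. Rates per base were not compared. The stretches between these gaps had 56.7%, 100%, 100%, 72.2% and 83.3% of their numbers listed, in 5′ to 3′ order. Of the 39 neighbouring pairs, 23 had consecutive numbers and gaps of at most 91 nt (median 36 nt). The 16 pairs with skipped numbers had gaps of at least 83 nt (median 283.5 nt), so pairs of both kinds overlapped only between 83 and 91 nt.

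**Figure D3:**
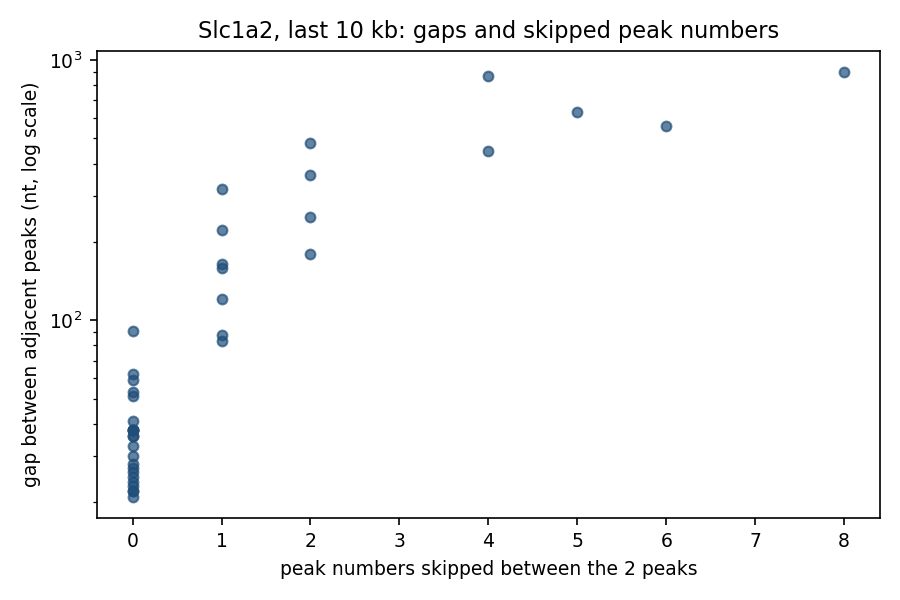
Gap between neighbouring Slc1a2 peaks of the last 10 kb (nt, log scale) against the count of peak numbers skipped between them, 1 point for each of 39 pairs. The 23 pairs with no skipped number have gaps of 21 to 91 nt, and the longest gap, 899 nt, skips 8 numbers.

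Set beside other genes with many peaks, Slc1a2 had the most peaks but not the highest density along its whole span, which includes introns. It had 0.340 peaks per kb of span, against 5.44 in Malat1, a nuclear lncRNA with 38 peaks, 0.618 in the imprinted lncRNA Meg3, 0.287 in the calcium pump gene Atp2a2, 0.0497 in the membrane glycoprotein gene Gpm6a and 0.0273 in Syt1, the calcium sensor of transmitter release. Over whole gene spans, the name of densest gene therefore holds for Slc1a2 only by number of peaks. From the first to the last peak of its cluster Slc1a2 had 4.31 peaks per kb, which still lay below Malat1's 5.44 over its whole span. The mitochondrial gene ND5 had 9.32 per kb with its 17 peaks of both strands, and 8.77 per kb with the 16 peaks of its plus strand.

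The last 10 kb of Slc1a2 carried more peaks than that of the other long genes named here. Peaks covered 26.0% of it, against 12.95% in Meg3, 11.95% in Gpm6a, 11.4% in Syt1, 8.70% in Atp2a2 and 7.76% in Atp1b1, and 38.4% of Malat1, whose whole span is 6.98 kb. It held 40 peaks, against 11 in Meg3, 12 in Gpm6a, 13 in Syt1, 12 in Atp2a2 and 13 in Atp1b1. Among protein-coding genes with a span of at least 10 kb, 0 others reached a coverage of 20% and 3 others reached 10%. The median over the 700 other protein-coding genes with a peak there was 0.960%. Of 21887 nuclear protein-coding genes, 13 (0.0594%) had at least 10 peaks.

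The share of peaks near the 3′ end did not set Slc1a2 apart. Among 59 other protein-coding genes with at least 5 peaks and a span over 10 kb, the median share in the last 10 kb was 88.9%, the same as in Slc1a2, and 30 of them were at or above it. Of those 59, 27 had all their peaks there. The share of listed numbers in Slc1a2 (45.9%) lay above that of Meg3 (20.9%) and Atp2a2 (36.8%) and below that of Syt1 (53.8%), Gpm6a (63.6%), Malat1 (67.9%) and Atp1b1 (68.4%).

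**Figure D4:**
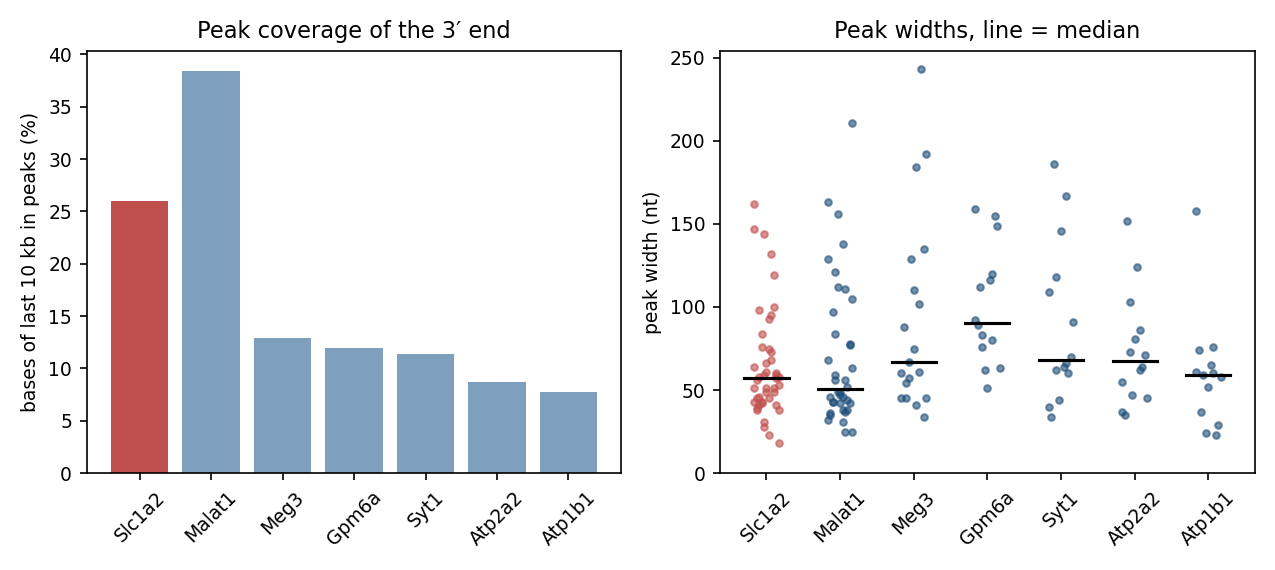
Percent of the last 10 kb of the gene span inside a peak (left; the whole span for Malat1) and width of every peak (right, nt, line at the median) in Slc1a2 and 6 other genes with many peaks. Slc1a2 has 26.0% coverage, above all shown but Malat1, while its median width of 57 nt lies between those of Malat1 (50.5 nt) and Gpm6a (90.5 nt).

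The peaks did not run on into neighbouring genes. Cd44, the next protein-coding gene, is placed on the minus strand by the promoter table, so its 3′ end faces that of Slc1a2. That end lies 20.4 kb after the end of Slc1a2, and Cd44 had 0 peaks. Pamr1, 15.2 kb before the start of the Slc1a2 span, had 0 as well. Within 500 kb on either side the list held 1 further peak, a minus-strand peak at 102449412 to 102449455 in Fjx1.

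Other genes of glutamate handling had far fewer peaks. The list fixed for this report, chosen with earlier results known, holds glutamate transporters, the enzymes and carriers of the glutamate and glutamine cycle, and subunits of the sodium pump, whose ion gradient drives GLT-1. Apart from Slc1a2, 9 of 33 genes (27.3%) had at least 1 peak, against 4.30% of nuclear protein-coding genes, and the median was 0 peaks in the list. RNA levels, including those of the input libraries, were not used here. Highly expressed genes may carry peaks more often for that reason, which was not tested. Slc1a2 alone held 45 of the 83 peaks of the list.

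The other members of the transporter family, Slc1a1 (EAAC1 of neurons), Slc1a3 (GLAST of astrocytes), Slc1a4, Slc1a5, Slc1a6 and Slc1a7, had 0 peaks each. Slc17a7, which loads glutamate into synaptic vesicles, had 5. Glul, which makes glutamine from the glutamate that astrocytes take up, and Slc38a2, a carrier of glutamine, had 2 each, and Slc25a12, a mitochondrial carrier of aspartate and glutamate, had 1. Atp1b1, a beta subunit of the sodium pump, had 13, and the glial beta subunit Atp1b2 had 1.

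Because GLT-1 is foremost an astrocyte protein, peaks in marker genes are given beside its count. Of 21 astrocyte markers, 9 had a peak (42.9%, against 4.30% of nuclear protein-coding genes), among them Slc1a2. Without Slc1a2, 8 of 20 (40%) had one, 31 peaks in all, of which Sparcl1 held 12 and Cpe 11, both also expressed in neurons. The defining markers Slc1a3, Aqp4, Gfap, Aldh1l1, Aldoc, S100b, Gja1 and Gjb6 had 0 peaks. Of 11 glutamatergic neuron markers 7 had a peak (63.6%, 35 peaks), of 8 oligodendrocyte lineage markers 3 (37.5%, 11 peaks), of 6 microglia markers 1 (16.7%) and of 5 endothelial and mural markers 0. All of these shares but the last lay above the 4.30% of nuclear protein-coding genes, and the lists are short. A peak is not a level, and fewer cells of a type and less RNA per cell cannot be told apart in such libraries. The part that RNA of astrocytes had in the Slc1a2 peaks was not tested.

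The miRNA libraries held 66854 counts in replicate 1 and 75658 counts in replicate 2. The 5 miRNAs linked to GLT-1 together took 6.999% and 7.06% of them, 7.03% ± 0.0456 (SD, n = 2). Most of that was miR-124-3p, a miRNA typical of neurons, with 3684 and 4258 counts, a share of 5.57% ± 0.0830 (SD, n = 2) and rank 4 of 1978 listed miRNAs.

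miR-181a-5p had 660 counts in replicate 1 and 693 in replicate 2, a share of 0.952% ± 0.0504 (SD, n = 2). miR-30a-5p had 179 and 209 counts, 0.272% ± 0.00601 (SD, n = 2). miR-218-5p, which is abundant in motor neurons, had 116 and 144 counts, 0.182% ± 0.0119 (SD, n = 2). miR-107-3p had 40 counts in each, 0.0564% ± 0.00492 (SD, n = 2). The gaps between these shares exceeded the spread between libraries at each step of the order.

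**Figure D5:**
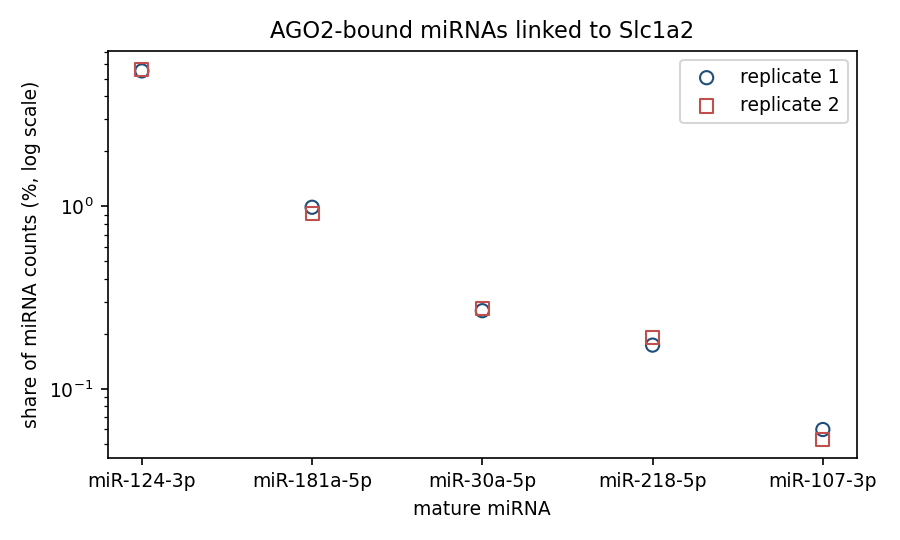
Share of all miRNA counts (%, log scale) of the 5 miRNAs linked to GLT-1 in the 2 AGO2-bound miRNA libraries, a circle for replicate 1 and a square for replicate 2. miR-124-3p stands highest at 5.57%, and the order of the 5 is the same in both libraries.

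Summed over the miRNAs of the same seed shown above, the miR-181 group held 1.90% ± 0.108 and the miR-30 group 1.88% ± 0.0795 of the counts (SD, n = 2 each), which differ by less than the spread. The miR-30 group was led by miR-30c-5p with 595 and 738 counts. Its sum leaves out miR-30b-5p and miR-30d-5p. The miR-103 and miR-107 group held 0.320% ± 0.0376 (SD, n = 2), most of it from miR-103-3p with 156 and 222 counts. These shares describe what AGO2 held in the cortex samples and do not say which miRNA lay on Slc1a2.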

How the data were processed

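The target side was used as the authors' deposited peak list, 1 for the series, with position, name, strand and a score that is 0 for every peak. For each mature miRNA the authors deposited a whole-number read count without normalization; their naming shows that duplicates were kept, so miRNA shares, their SDs and the limits for 0 counts rest on reads, not molecules. The submitters' processing notes list Bowtie2 2.4.2, STAR 2.5.2a, cutadapt 2.10, UMI-tools, deepTools 3.1.3, DESeq2 1.36.0 and the mm10 build without saying which step each served. Of the peak caller, its settings, pooling of libraries and use of input nothing is stated in these sources. The depth of the target libraries is unknown.

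A peak was credited to each gene whose RefSeq span (GRCm38.p6, the assembly mm10 holds) held its midpoint. Peaks with their midpoint inside a small noncoding RNA gene were credited to no gene, and host genes kept their other peaks. Ends of genes follow the strand of most of their peaks. Coordinates count from 1. The Slc1a2 peaks, gene lists and miRNAs were chosen with earlier results of these data known. Named are Slc1a2, the 10 genes with the most peaks, genes of the lists with a peak, neighbours and linked miRNAs; some genes under this rule are not reported here, and other names were chosen after their values were seen. No test was run, since the list has no replicates and the miRNA libraries form 1 group. The labels do not say whether replicates came from separate animals. For a miRNA with 0 counts the share could be as high as 0.00449% (replicate 1) or 0.00397% (replicate 2). The window and coverage steps were run on simulated data and returned the planted values in 200 of 200 cases. The crediting check also returned 200 of 200, but every simulated peak lay inside its own gene, so it could not fail. Overlapping genes, small noncoding RNA genes, the choice of strand, gaps and joining were not simulated. Alternatives were other rules for position, width, joining and window, leaving out each library, and another denominator. The planned search for seed sites was not run. Python 3.11.15, numpy 2.4.6, scipy 1.17.1 and matplotlib 3.10.9 were used.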

Additional observations from a re-analysis of the deposited data

How the results depend on the processing

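Of 20 alternatives over 6 results, 13 left the value within its interval, its SD or 1.5 times its count. Several of these could not have moved it, so the 13 do not measure robustness. Joining peaks under 10 nt apart changes nothing, because no gap in the list is under 21 nt. Adding the minus strand changes nothing, because the span holds 0 peaks there. With n = 2, leaving out either library always stays within the SD. The Slc1a2 peak count of 45 became 28 with peaks of at least 50 nt only and 27 with peaks under 50 nt apart joined. The share near the 3′ end became 44.4% in the last 5 kb (20 of 45 peaks). Coverage of the last 10 kb became 28.0% when measured from the first to the last peak of the cluster and 19.9% with peaks of at least 50 nt. The median width became 118 nt after joining. The summed share of the linked miRNAs became 8.10% without miR-128-3p in the denominator, and 6.999% to 7.06% with either library left out. Each change follows from how the alternative is built. No paired analysis was possible because only the miRNA group has values per library. The seed site alternatives were not run, since the sequence of the peaks was not used here. With no value per library, nothing shows how many of the peaks a repeat of the target libraries would find.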
